A study of Mus musculus with 21 samples.

Results

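Interleukins are small secreted proteins through which immune, stromal and epithelial cells signal to each other, and each acts through membrane receptors built from a ligand-binding chain and a signalling partner that several receptors often share. Most of these receptors act either through JAK kinases and STAT transcription factors or, in the IL-1 family, through the adaptor MYD88 and NF-kappaB. In the kidney, several of them have been studied in tubular injury, in the recruitment of leukocytes and in scarring. Here the genes of this group were followed in the kidneys of apoE knockout mice with chronic kidney disease caused by dietary adenine, a purine whose metabolite crystallises in the tubules, and in mice that also received iodomethylcholine (IMC), an inhibitor of the bacterial enzyme that makes trimethylamine from choline.

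All mice were female apoE knockouts on the C57BL/6J background, a strain with high blood cholesterol, which began their diets at 4 weeks of age and were killed after 14 weeks on them, at 18 weeks. The 5 Con mice ate chow, the 6 Ade mice chow with adenine, and the 6 Ade + IMC mice chow with adenine and IMC. Every mouse gave 1 RNA-seq library of kidney. The 4 mice labelled as Con + IMC were not analysed here, so IMC could be examined only on the adenine diet.

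The group was defined by gene symbol: Il, a number and any further lower case letters or digits, leaving out Il1a, Il1b, Il1rn and Il18. Of 63 such genes with an Ensembl identifier, 60 had at least 10 reads summed over the 17 mice and were kept, out of 20317 genes that met the same minimum. The members just inside this limit were Il20ra with 11 reads and Il12a with 21, and those just outside were Il13 and Il2 with 9 reads each and Il24 with 7. For 16 further matching symbols, Il17a, Il22 and Il25 among them, no identifier linked the name to a count, and these were not analysed. By role the 60 genes comprised 21 ligands, 36 receptor chains and 3 others. These others were Il18bp, a secreted protein that binds IL-18, Il1bos, an RNA antisense to Il1b, and Il4i1, which encodes an amino acid oxidase and only carries an interleukin's name.

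Promoter sequences are shown because most members tested were higher on the adenine diet, and all members with an entry were searched, ligands included. RefSeq promoter sequences (GRCm38.p6) were matched by symbol for 47 of the 60 members, some with more than 1 annotated start, and the 250 bases before each annotated start were searched on both strands for a STAT motif (TTCNNNGAA), an AP-1 motif (TGANTCA), a PU.1 motif (GAGGAAGT) and the kappaB motif. These members had 60 promoters in all. A STAT match was present in 8 of them (13.3%) and in 7.02% of all 32851 promoters. AP-1 matches were found in 8 (13.3%) against 6.75% of all promoters, PU.1 matches in 2 (3.33%) against 2.44%, and kappaB matches in 3 (5.0%) against 5.0%. Counted by gene, a STAT match was held by 8 of the 47 members and 8.13% of all 27025 genes, and the AP-1 match by 8 members and 7.82% of genes. Of those with a STAT match, Il7r, Il18r1, Il1r2 and Il1f9 were higher on adenine, Il12rb2, Il1bos and Il31ra were not called and Il1f5 was lower. Of those with an AP-1 match, Il6, Il11, Il16, Il17rb and Il5ra were higher, Il15ra and Il22ra1 lower and Il20ra was not tested. Some of these calls were made only without the filter on low counts, described below. In none of the member promoters did matches of 2 motifs overlap. A match is a description of letters and not evidence of binding. Of the receptor genes that were higher on the adenine diet, 3 are shown, 1 for each of 3 motifs, each with the matched motif in capitals: Il7r, the IL-7 receptor (chr15:9529877-9530126, minus strand, STAT motif), Il2ra, the inducible high-affinity chain of the IL-2 receptor (chr2:11642542-11642791, plus strand, kappaB motif), and Il18rap, the signalling chain of the IL-18 receptor (chr1:40515112-40515361, plus strand, PU.1 motif). The STAT match of Il7r lies from 142 to 134 bases before the start, the kappaB match of Il2ra from 201 to 192 and the PU.1 match of Il18rap from 79 to 72.
Il7r: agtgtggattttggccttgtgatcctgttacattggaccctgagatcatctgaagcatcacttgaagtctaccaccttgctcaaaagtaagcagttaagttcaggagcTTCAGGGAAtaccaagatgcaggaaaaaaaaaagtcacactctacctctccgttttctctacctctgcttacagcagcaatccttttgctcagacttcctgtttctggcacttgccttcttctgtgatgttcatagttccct
Il2ra: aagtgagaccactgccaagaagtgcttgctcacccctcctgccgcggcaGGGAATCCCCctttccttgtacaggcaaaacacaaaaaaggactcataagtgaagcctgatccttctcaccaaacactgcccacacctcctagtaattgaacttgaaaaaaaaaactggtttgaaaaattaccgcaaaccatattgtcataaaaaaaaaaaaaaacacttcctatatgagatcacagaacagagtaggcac
Il18rap: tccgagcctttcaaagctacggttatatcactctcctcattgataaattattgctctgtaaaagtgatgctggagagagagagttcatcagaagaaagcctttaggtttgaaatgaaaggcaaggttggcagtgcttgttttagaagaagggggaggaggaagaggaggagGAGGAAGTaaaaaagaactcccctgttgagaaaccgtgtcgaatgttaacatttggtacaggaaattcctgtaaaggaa

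Library totals ran from 7716126 to 11680809 reads in Con, from 5444833 to 7673215 in Ade and from 5728589 to 8305968 in Ade + IMC, so every Con library was deeper than every Ade library, whereas 2 of the 6 Ade + IMC libraries lay within the range of Con. Apoe, the gene deleted in all mice, still had 47 to 214 reads per library, and with no wild-type kidney among these samples this level could not be compared with an intact gene. Havcr1, which encodes the tubular injury marker KIM-1, had 1 to 7 reads in Con mice and at least 192 in every mouse on adenine. Tubule transcripts dominated the marker lists in all groups, with summed levels of 6 nephron genes between 5124 and 22050 CPM. CPM is the usual measure of reads relative to library size, here after the 17 library sizes were scaled by the trimmed mean of M values (TMM).

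On the adenine diet most interleukin receptors with enough reads to be tested were higher, as were 5 of the 7 ligands. Of the 60 members, 40 had enough reads to be tested in Ade against Con, and 30 of these were higher, 3 lower and 7 not called at a Benjamini-Hochberg adjusted p below 0.1 over all 14612 genes tested with edgeR. Among all genes tested, 35.1% were called higher and 32.2% lower. The median log2 fold change was 1.76 over the members tested and 0.02 over all genes. Of the tested members, 7 passed the filter on low counts without any Con mouse above its limit, so these 7 could only be tested because they were high in Ade. They were Il1f6, Il1r2, Il1rl1, Il2ra, Il7r, Il9r and Il12rb1. Receptor chains made up most of the calls, with 24 of 31 tested higher and 2 lower, whereas only 7 of the 21 ligands could be tested, and of these Il15 was lower and Il4 not called. Because whole kidneys were sequenced, more cells of a type and more RNA per cell cannot be told apart in any of these values.

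**Figure D1:**
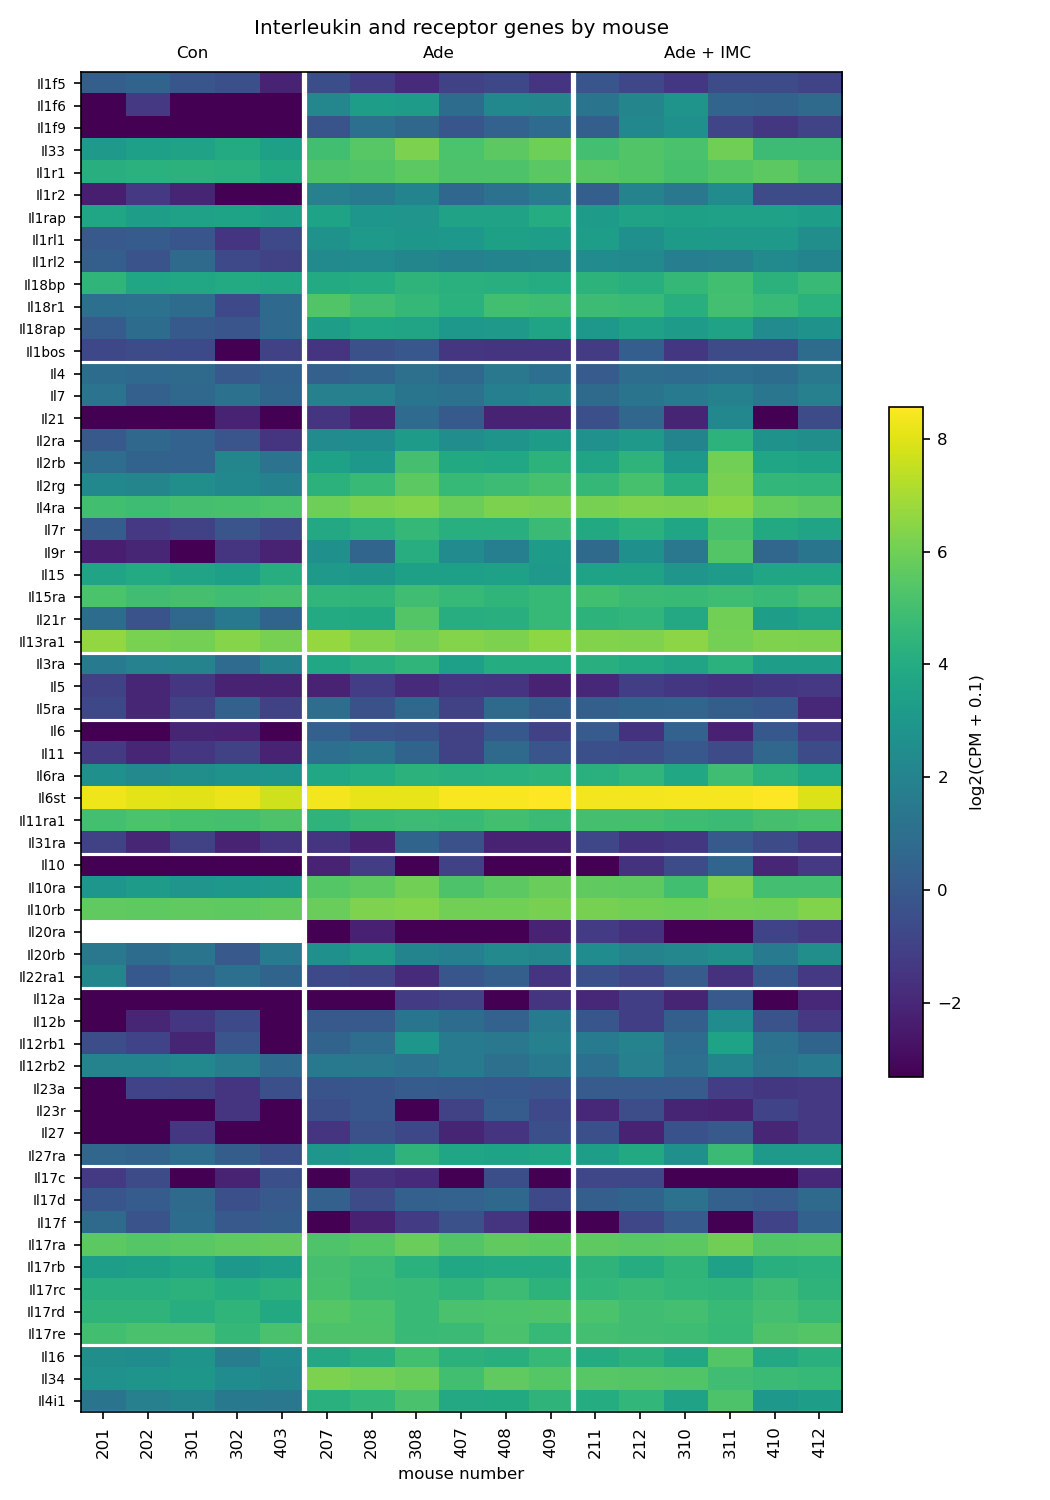
Heat map of all 60 members (rows, by family, separated by white lines) in the 17 mice (columns, by group), coloured by log2(CPM + 0.1). The Ade and Ade + IMC columns are lighter than Con for most receptor rows, Il20ra was not in the table that holds Con and is blank there, and mouse 311 stands out in the rows of the lymphoid receptors Il2rb, Il9r and Il21r.

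In the IL-1 family, 8 of the 10 members tested were higher in Ade and none lower, beside 35.1% and 32.2% of all genes. Of these 8, Il1f6, Il1r2 and Il1rl1 passed the filter on low counts only through Ade. IL-33, an alarmin kept in the nucleus and released by damaged cells, was encoded by a transcript at 8.48, 10.5, 11.5, 15.3 and 10.8 CPM in the 5 Con mice. In Ade the lowest Il33 level was 31.4, the median 45.7 and the highest 74.8 CPM. No Ade mouse overlapped Con, and the log2 fold change was 2.14 ± 0.23 (SE, adjusted p = 4.0e-06). Its receptor ST2 is the product of Il1rl1, which was at 0.908, 1.01, 0.813, 0.260 and 0.523 CPM in Con against 6.86 to 10.9 CPM with a median of 8.14 in Ade. Il1rl1 was higher by 3.60 ± 0.26 on the log2 scale (adjusted p = 1.1e-07), but it could be tested only because it was high in Ade. Il1rap, the accessory chain that ST2, the IL-1 receptor and the IL-36 receptor all use, had 11 ± 1.4 CPM (SD, n = 5) in Con and 11 ± 3.3 (n = 6) in Ade, with a log2 fold change of 0.01 ± 0.19 (adjusted p = 0.95).

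Transcripts for both chains of the IL-18 receptor were low in Con. Il18r1, the binding chain, had 1.92, 2.17, 1.76, 0.520 and 1.57 CPM in Con, and its lowest, median and highest levels in Ade were 18.9, 29.7 and 39.8 CPM. Il18rap went from 1.21 ± 0.42 CPM (SD, n = 5) to 10.6 ± 2.1 (n = 6). The log2 fold changes were 4.19 ± 0.26 for Il18r1 and 3.16 ± 0.24 for Il18rap (adjusted p = 4.4e-08 and 1.7e-07), and neither gene's groups overlapped. Il18bp, the antagonist of the same pathway, was not called, at 15.5 ± 3.7 CPM in Con and 17.5 ± 2.1 in Ade (log2 fold change 0.19 ± 0.14, adjusted p = 0.27). Without Con mouse 201, which had the highest Con level at 21.9 CPM, Il18bp was called higher (log2 fold change 0.35, adjusted p = 0.025).

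The receptors for IL-1 itself and for IL-36 were higher too. Il1r1, the signalling IL-1 receptor, rose from 18.0 ± 2.1 to 41.0 ± 4.5 CPM (log2 fold change 1.21 ± 0.10, adjusted p = 5.6e-07). Il1r2, the decoy receptor that binds IL-1 without signalling, had 0 to 2 reads in each Con mouse and 11 to 28 in each Ade mouse (log2 fold change 4.63 ± 0.52, adjusted p = 4.7e-06). The IL-36 receptor gene Il1rl2 was at 0.874 ± 0.50 CPM in Con and 4.43 ± 0.62 in Ade, a log2 fold change of 2.34 ± 0.29 (adjusted p = 1.5e-05). Of the IL-36 ligands, Il1f6 (IL-36 alpha), an epithelial cytokine, had 2 reads in all Con mice together, both in mouse 202, and 13 to 88 reads in each Ade mouse. The ratio of its summed reads, corrected for library size, was 113, with an exact counting interval of 30.9 to 936, and its adjusted p was 9.7e-06. Il1f9 (IL-36 gamma) was at 0 reads in every Con mouse and at 6 to 17 in Ade, which makes its level at least 20.1-fold higher than a floor of 3 reads over the Con group.

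The 6 receptor genes of this family that rose lie side by side. Il1r2, Il1r1, Il1rl2, Il1rl1, Il18r1 and Il18rap are the only protein-coding genes that GENCODE M21 places between the start of Il1r2 and the end of Il18rap, chr1:40074079-40551705 (GRCm38, plus strand throughout), a span of 478 kb. All 6 were called higher in Ade, by 1.21 to 4.63 on the log2 scale. Il1r2, at 4.63, and Il1rl1 are among the members that passed the filter only through Ade, and the other 4 rose by 1.21 to 4.19. Immediately upstream Map4k4 was higher by 1.12 ± 0.10, whereas downstream Slc9a4 was not called (0.17 ± 0.24) and Slc9a2 and Mfsd9 fell by 1.09 ± 0.14 and 1.20 ± 0.18. The annotated end of Il1rl1 at 40465415 lies just before the start of Il18r1 at 40465552 on the same strand, so reads running from one gene into the other could not be told apart by position.

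**Figure D2:**
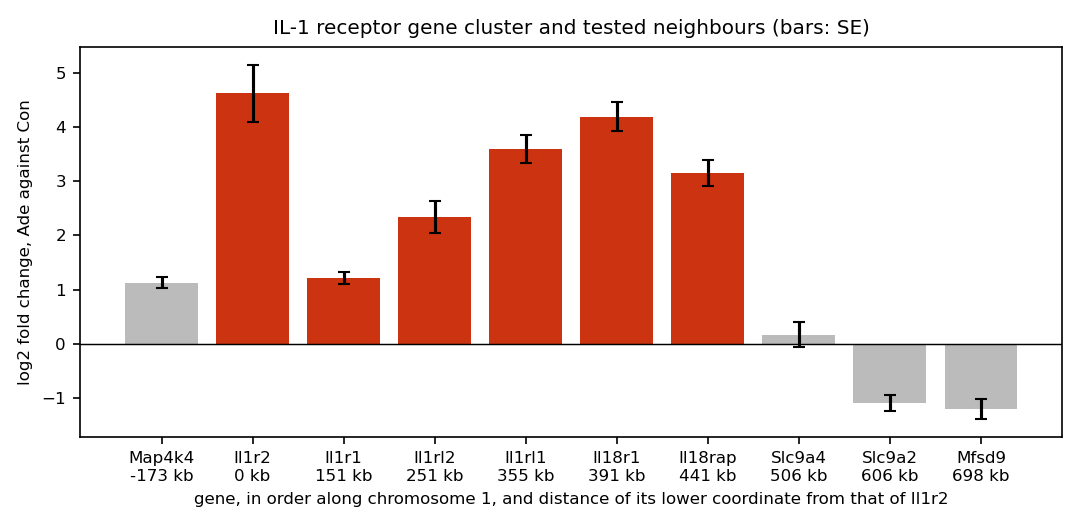
Log2 fold change of Ade against Con (bars, with SE) for the IL-1 receptor cluster on chromosome 1 in genomic order; labels give the distance of each gene's lower coordinate from that of Il1r2. The 6 receptor genes (red) lie between 1.21 and 4.63, above the downstream neighbours Slc9a4, Slc9a2 and Mfsd9 (grey).

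Genes of the common gamma chain family, whose receptors share the product of Il2rg and are best known from lymphocytes, gave 8 higher and 2 lower calls among 12 tested. Among all genes 35.1% were higher and 32.2% lower. Il7r, needed for the survival of T cells, stood at 1.01, 0.289, 0.406, 0.779 and 0.523 CPM in Con, and its lowest, median and highest values in Ade were 14.2, 17.9 and 27.2 CPM. This was a log2 fold change of 4.97 ± 0.28 (adjusted p = 1.7e-08) with a wide gap between the groups, for a gene that passed the filter only through Ade, as did Il2ra and Il9r. The shared chain Il2rg had 4.54, 4.19, 5.82, 4.55 and 3.66 CPM in Con and 19.7 to 48.0 with a median of 27.3 CPM in Ade (log2 fold change 2.75 ± 0.23, adjusted p = 4.0e-07). The IL-2 receptor chains Il2ra and Il2rb were higher by 2.92 ± 0.32 and 2.96 ± 0.42, the IL-21 receptor Il21r by 3.78 ± 0.36 and the IL-9 receptor Il9r by 5.63 ± 0.81 on the log2 scale (adjusted p = 4.6e-06, 4.1e-05, 1.6e-06 and 4.1e-05). Il9r rested on 0 to 2 reads per Con mouse, and its Ade values were widely spread, from 12 to 101 reads.

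Il4ra, the IL-4 and IL-13 receptor chain found on epithelial and myeloid as well as lymphoid cells, rose from 32.9 ± 2.9 to 70.6 ± 8.7 CPM (log2 fold change 1.12 ± 0.10, adjusted p = 8.3e-07). Its partner for IL-13, Il13ra1, was at 78.1 ± 13 CPM in Con and 83.4 ± 12 in Ade and was not called (0.12 ± 0.12, adjusted p = 0.41). Among the ligands, Il7 rose modestly, by 0.94 ± 0.24 (adjusted p = 0.0038), with overlapping groups of 1.16 to 2.22 and 2.16 to 3.87 CPM. Il4 had 7 to 17 reads in Con and 9 to 21 in Ade and was not called (0.34 ± 0.27, adjusted p = 0.29).

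IL-15 and its private receptor chain went the other way, unlike Il2rb and Il2rg, the 2 other chains of the IL-15 receptor, which were higher as given above. Il15, which supports natural killer and memory T cells, was at 12.1, 15.3, 12.2, 10.5 and 16.9 CPM in Con and at 7.84 to 11.1 with a median of 9.47 CPM in Ade. Il15ra, which presents IL-15 on the cell surface, was at 36.8, 29.7, 33.5, 30.1 and 32.3 CPM in Con and at 21.8 to 29.9 with a median of 23.4 CPM in Ade. The ranges overlapped slightly in both cases, yet all 6 Ade mice were below the Con mean, and the calls were lower for Il15 by -0.47 ± 0.15 and for Il15ra by -0.40 ± 0.10 on the log2 scale (adjusted p = 0.016 and 0.0028).

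In the IL-6 family the shared signal transducer gp130, the product of Il6st, was abundant in all groups, at 269 ± 40 CPM in Con and 328 ± 39 in Ade (log2 fold change 0.31 ± 0.12, adjusted p = 0.033). Il6ra, the IL-6 binding chain, was at 6.16, 4.77, 5.82, 6.88 and 6.92 CPM in Con and at 13.5 to 20.6 with a median of 18.3 CPM in Ade, a rise of 1.56 ± 0.14 on the log2 scale (adjusted p = 1.1e-06). The receptor for IL-11 differed in direction: Il11ra1 was at 32.2, 37.1, 34.0, 32.9 and 37.8 CPM in Con and at 20.8 to 30.9 with a median of 26.4 CPM in Ade. No Ade mouse reached the lowest Con mouse, and Il11ra1 was lower by -0.37 ± 0.10 (adjusted p = 0.0048).

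Both ligands of these receptors were rare transcripts that the filter on low counts removed. Il6 had 0 or 1 read in each Con mouse and 3 to 9 in each Ade mouse. Il11 had 1 to 3 reads in Con, whereas Ade mice held 3, 6, 8, 13, 15 and 20. For Il6 the ratio of summed reads, corrected for library size, was 14.3, with an exact counting interval from 3.65 to 123 that covers counting error only.

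Of the IL-10 family, Il10ra and Il10rb, the chains of the IL-10 receptor, were both higher. Il10ra, which is found mainly on leukocytes, had 7.57, 9.39, 7.31, 8.05 and 8.36 CPM in Con against 38.1 to 66.2 with a median of 48.5 CPM in Ade (log2 fold change 2.65 ± 0.15, adjusted p = 1.9e-08). Il10rb, which is expressed widely and also serves other cytokines, rose only from 50.3 ± 1.7 to 69.5 ± 8.7 CPM (0.49 ± 0.09, adjusted p = 4.1e-04). Il20rb, a chain of the receptors for IL-20 type cytokines, was higher by 1.33 ± 0.30 (adjusted p = 0.0019). Il10 itself was at 0 reads in every Con mouse and at 0 to 3 in Ade. Il22ra1, the epithelial chain of the IL-22 receptor, had 6 to 42 reads in Con and 1 to 9 in Ade.

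In the IL-12 family the receptor genes Il27ra and Il12rb1 were higher in Ade, by 3.31 ± 0.32 and 2.96 ± 0.60 on the log2 scale (adjusted p = 1.5e-06 and 6.7e-04). Il27ra, the IL-27 receptor, was at 1.26 ± 0.46 CPM in Con and 12.5 ± 4.7 in Ade. Il12rb1, used by both IL-12 and IL-23, was at 0.391 ± 0.32 and 3.26 ± 2.2 CPM, and mouse 308 alone had 7.52. Il12rb1 passed the filter only through Ade. Il12rb2 was not called (log2 fold change -0.43 ± 0.24, adjusted p = 0.14). Il12b, the subunit common to IL-12 and IL-23, had 0 to 4 reads in Con and 7 to 22 in Ade, below the filter.

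All 5 IL-17 receptor chains were readily detected in Con, and 3 of them were higher in Ade by at most 1.05 on the log2 scale. Il17ra, the common chain, was at 47.9 ± 3.6 CPM in Con and 46.7 ± 6.9 in Ade, and Il17re, its partner for IL-17C, at 32.6 ± 5.1 and 31.6 ± 5.8. Neither was called (log2 fold changes -0.01 ± 0.10 and -0.02 ± 0.14, adjusted p = 0.92 for both). Il17rb, Il17rc and Il17rd were higher by 1.05 ± 0.24, 0.56 ± 0.13 and 0.95 ± 0.13 (adjusted p = 0.0019, 0.0017 and 4.5e-05). The rise of Il17rb, the IL-25 receptor, was uneven, since Ade mice 207 and 208 had 33.8 and 28.2 CPM and the other 4 Ade mice 13.8 to 19.0. The ligand gene Il17f had 5 to 16 reads in Con and 0 to 5 in Ade, too few for the filter.

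Il34 and Il16 stand outside the families. IL-34 is a second ligand of the CSF-1 receptor and is made by tubular epithelium among other cells. Il34 was at 6.36, 6.93, 7.85, 5.33 and 4.57 CPM in Con and at 30.7 to 74.3 with a median of 55.0 CPM in Ade, and the log2 fold change was 3.16 ± 0.23 (adjusted p = 1.6e-07). Divided by exonic length, the mean level of Il34 in Ade was 27.8 CPM per kilobase, next to 17 for Il33. Il16, a chemoattractant for CD4 cells, was higher by 1.97 ± 0.23 (adjusted p = 8.2e-06). Of its 7865 exonic bases, 1368 are shared with Stard5, so some of its reads may be counted for either gene. Il3ra, the IL-3 receptor chain, was also higher, by 2.33 ± 0.23 (adjusted p = 2.3e-06). Il4i1 was higher by 2.82 ± 0.27 (adjusted p = 1.6e-06), but 3520 of its 4080 exonic bases overlap Tbc1d17 on the opposite strand, and the counting is not stated to use strand. Exonic bases are shared with another gene also for Il12rb2 (1519 of 3794, with Serbp1) and Il2rg (728 of 2387, with Gm20489).

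**Figure D3:**
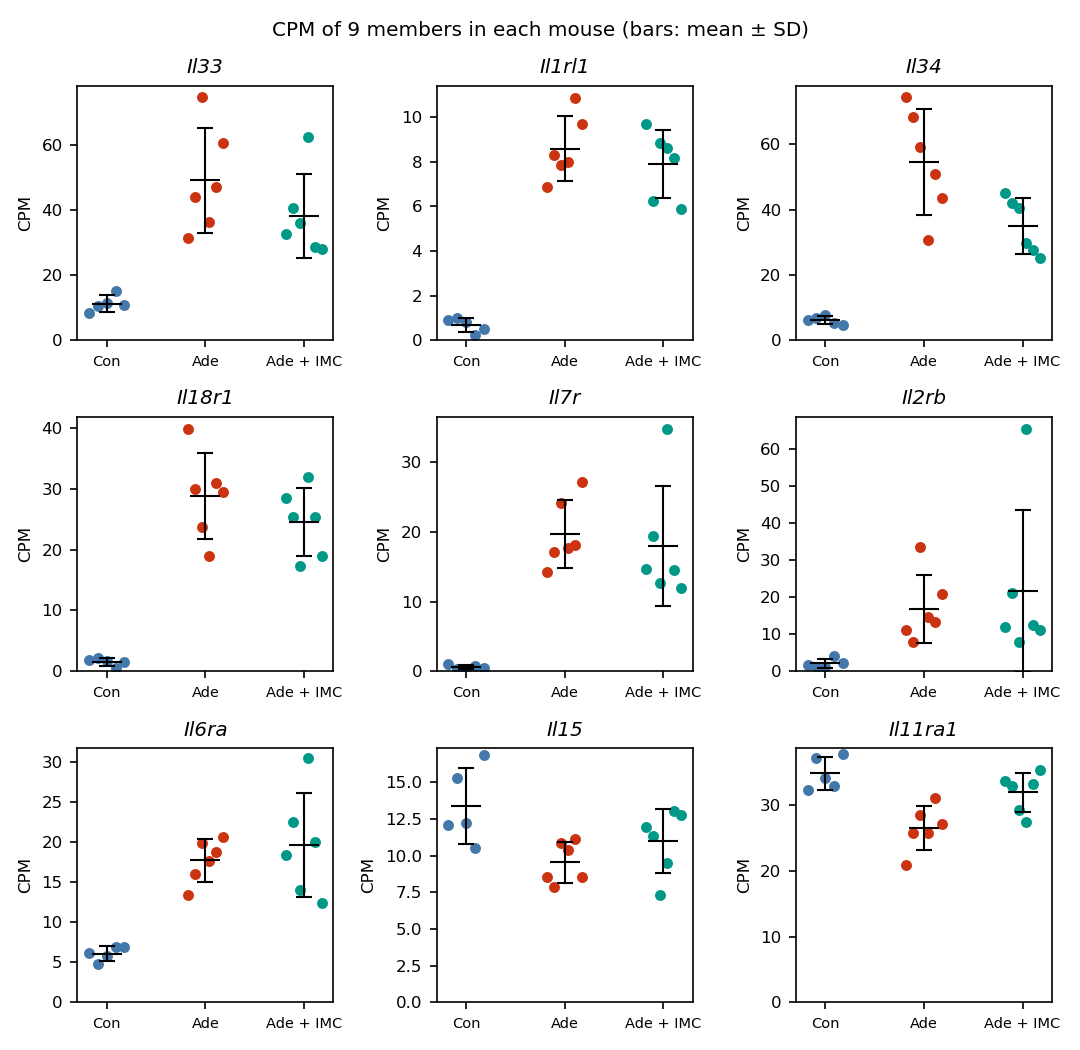
CPM of 9 members in every mouse, by group (points), with mean and SD (bars). Con mice lie below all Ade mice for Il33, Il1rl1, Il34, Il18r1, Il7r, Il2rb and Il6ra, whereas Il11ra1 is lower in all 6 Ade mice and Il15 is lower with overlapping ranges.

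Altogether 20 members went untested in Ade against Con, of which 19 had too few reads for the filter and Il20ra was absent from the table that holds Con. Run without the filter, the same test called 11 of the 19 higher and 3 lower, where 29.2% and 24.6% of all genes were called. The 3 lower were Il17f, Il22ra1 and Il1f5, an antagonist of the IL-36 receptor. Il5, Il17c, Il17d, Il31ra and Il1bos were the 5 not called. Counts this small leave wide errors, and no difference was detected in these 5 at this depth.

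Levels can be compared between genes only after division by exonic length. On the scale of CPM per kilobase, Il6st was the highest member in Con at 24.2, followed by Il13ra1 at 21 and Il10rb at 13.2, 3 receptor chains that many cell types express. In Ade the order of the first members changed to Il6st at 29.6, Il34 at 27.8 and Il13ra1 at 22.5 CPM per kilobase. Il34 had stood at 3.17 on this scale in Con.

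Other genes of the pathway were read from a list of 37, of which 36 could be tested. The list holds kinases, STAT factors, adaptors and inhibitors inside the cell, and also ligands such as Osm and Csf1 and receptors such as Osmr, Lifr and Csf1r, the last of which is a macrophage marker as well. In Ade 26 of them were higher and 5 lower, beside 35.1% and 32.2% of all genes, with a median log2 fold change of 1.03. Socs3, the feedback inhibitor induced by gp130 cytokines, rose from 4.21 ± 1.0 to 73.6 ± 17.8 CPM (log2 fold change 4.15 ± 0.22, adjusted p = 1.2e-08), and Stat3 by 1.04 ± 0.10 (adjusted p = 2.3e-06). Jak3, the kinase bound to the common gamma chain, was higher by 1.63 ± 0.13 and Osmr, the oncostatin M receptor, by 2.55 ± 0.13 (adjusted p = 2.5e-07 and 8.9e-09). Csf1r, the receptor that IL-34 shares with CSF-1, was higher by 0.90 ± 0.13, and Ebi3, a subunit of IL-27, by 2.22 ± 0.30 (adjusted p = 4.0e-05 and 2.7e-05). The 5 lower genes were Sigirr, an inhibitory IL-1 receptor relative, Lifr, Tollip, Cish and Traf6, by -0.17 to -0.80.

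Markers of several cell types moved in the same comparison. The summed level of 6 T cell markers was 5.28 to 11.6 CPM in Con and 47.7 to 174 in Ade (exact permutation p = 0.0043, two-sided). For 4 B cell markers the ranges were 2.83 to 3.79 and 8.52 to 124 CPM, for 6 macrophage and myeloid markers 170 to 209 and 1102 to 1802, and for the 3 neutrophil markers found among 4 the ranges were 0.131 to 0.813 and 3.79 to 13.3. Of the 4 fibroblast markers, all were called higher and their sum was 196 to 251 CPM in Con and 1108 to 1448 in Ade. Tubule markers, in contrast, summed to 15718 to 22050 CPM in Con and 5124 to 11713 in Ade, and 5 of 6 were called lower. The 4 mast cell markers summed to 32.4 to 47.9 CPM in Con and 37.3 to 48.0 in Ade, but nearly all of this was Kit, at 43.0 ± 6.3 CPM (SD, n = 5) and 40.2 ± 3.3 (n = 6), the 1 marker of the 4 with enough reads to be tested. Cpa3 had 0 or 1 read in each Con mouse and 0 to 17 in Ade, and Mcpt4 0 or 1 and 0 to 4. The part of these shifts in the values of the interleukin receptors was not tested.

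Between the adenine-fed mice with and without IMC no interleukin gene or receptor was called by limma, and Il34 alone was called, as lower, once the digit that opens the mouse number was added as a block. In Ade + IMC against Ade, 42 members could be tested and none was called without the block, on log2(normalized count + 1), where the smallest adjusted p among members was 0.71 and 0% of the 14696 genes tested were called in either direction. Counts of called members were also 0 with edgeR and with DESeq2 on reads recovered from the normalized values, where DESeq2 called 0.139% of genes higher and 0.106% lower. At an unadjusted p below 0.05 there were 3 members higher and 1 lower, beside 3.37% and 3.35% of all genes. With the digit as a block, a count added after seeing the data, the balance turned to 2 members higher and 6 lower at an unadjusted p below 0.05, beside 7.4% and 6.26% of all genes. The median difference was -0.09 over the members and 0.01 over all genes, and 30 of the 42 differences were below 0.

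**Figure D4:**
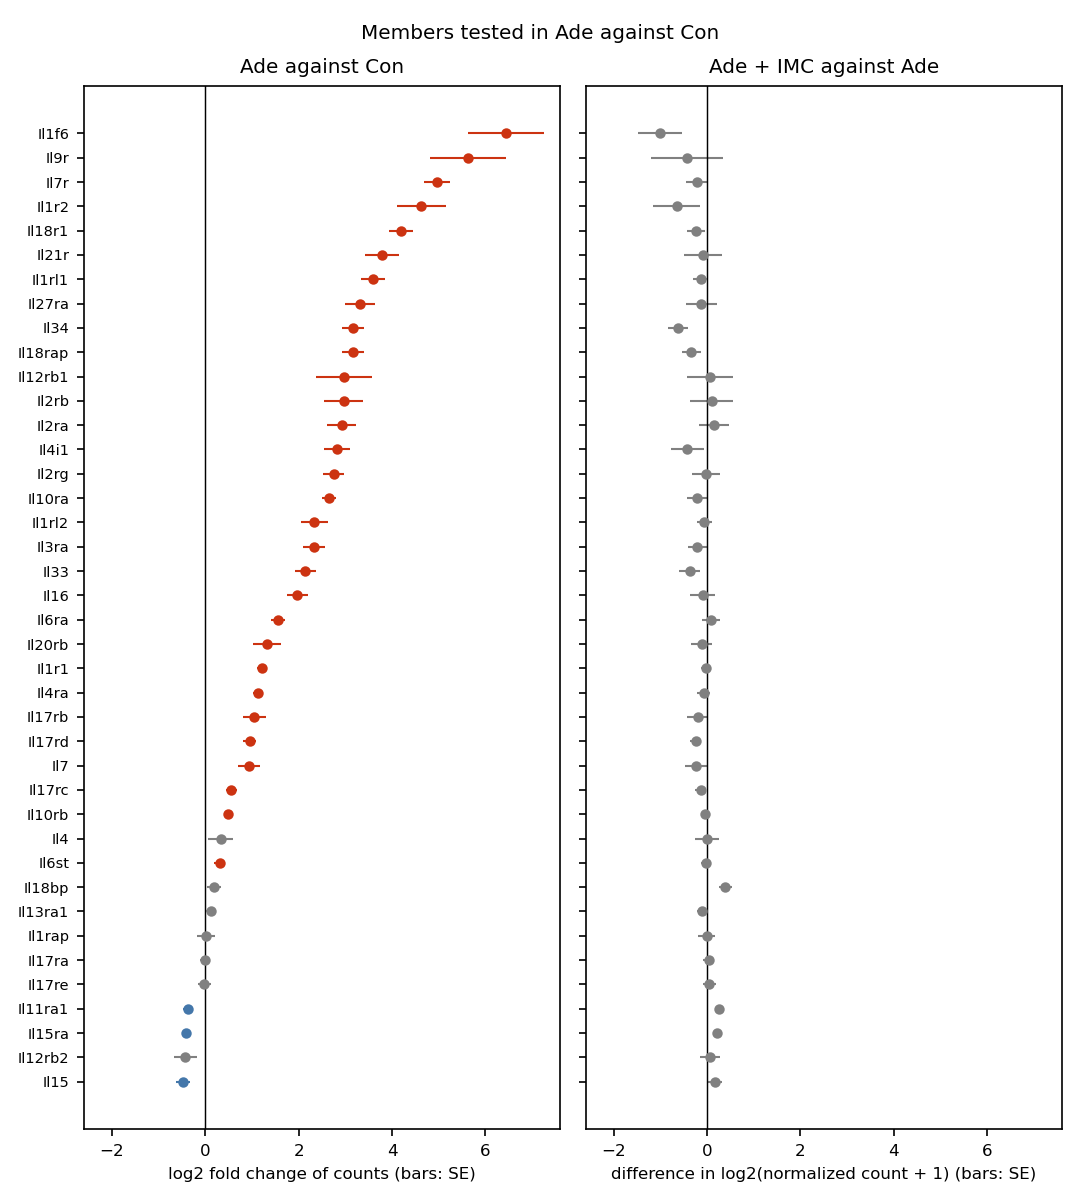
Log2 fold change of counts in Ade against Con (left) and difference in log2(normalized count + 1) in Ade + IMC against Ade (right) for the 40 members tested in the first comparison, with SE; red marks members called higher, blue lower and grey not called. All points at right are grey and lie between -1.0 and 0.39, whereas the left panel runs from -0.47 to 6.44.

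Il34 had the smallest p of the members in this comparison. Its normalized counts ran from 229 to 553 with a median of 410 in Ade and from 183 to 336 with a median of 261 in Ade + IMC. The ranges overlapped, all 6 Ade + IMC mice were below the Ade mean, and the difference was -0.62 on the log2 scale with a 95% interval from -1.09 to -0.16 (unadjusted p = 0.012 and adjusted p = 0.71 by limma). The mouse numbers begin with 2, 3 or 4, and within these digits the difference for Il34 was -0.72, -0.78 and -0.65. For digit 3 the Ade side is mouse 308 alone. With the digit as a replicate block in limma, Il34 was the 1 member called, at -0.70 and an adjusted p of 0.060, where 0.408% of all genes were called lower and 0.497% higher. Il34 had also been called higher in these same Ade mice than in Con, which by itself favours a negative difference here. Over the alternatives run, its difference lay between -0.78 and -0.52 and its adjusted p between 0.060 and 0.996. What the digit stands for is not stated in the sources used here.

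The 3 members that were higher at an unadjusted p below 0.05 without the block were Il18bp, Il11ra1 and Il15ra. Il18bp had normalized counts of 131 ± 16 (SD, n = 6) in Ade and 174 ± 38 in Ade + IMC, a difference of 0.39 with a 95% interval from 0.10 to 0.68 (unadjusted p = 0.013, adjusted p = 0.71 by limma). Il11ra1 stood at 197 ± 25 and 236 ± 21, a difference of 0.26 with an interval from 0.05 to 0.47, and Il15ra at 181 ± 24 and 211 ± 21, a difference of 0.23 with an interval from 0.01 to 0.44. Both Il11ra1 and Il15ra were lower in Ade than in Con, and this second comparison uses the same Ade mice. Within the digits the differences were 0.51, -0.02 and 0.28 for Il11ra1 and 0.40, -0.15 and 0.25 for Il15ra, whereas for Il18bp they were 0.28, 0.35 and 0.38. With the block Il18bp and Il11ra1 stayed below an unadjusted p of 0.05 by limma and Il15ra did not (0.21, interval from -0.02 to 0.44, unadjusted p = 0.067).

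None of the 8 members with the largest rise on adenine was called. They were chosen for high values in the same Ade mice that are the reference here, which by itself favours differences below 0, so nothing is read from their common sign. Il1f6 differed by -1.0 (95% interval from -2.01 to 0.01), Il1r2 by -0.65 (-1.73 to 0.43) and Il9r by -0.43 (-2.08 to 1.22), so the intervals of these 3 were wide. For the other 5 the differences were -0.23 for Il18r1 (-0.63 to 0.16), -0.21 for Il7r (-0.74 to 0.31), -0.14 for Il1rl1 (-0.47 to 0.20), -0.12 for Il27ra (-0.83 to 0.59) and -0.09 for Il21r (-0.96 to 0.78). Of these 8, Il9r and Il21r were above Ade on recovered reads with edgeR and DESeq2. Il33, also higher on adenine, differed by -0.37 (-0.87 to 0.12). With the digit as a block, the 6 members lower at an unadjusted p below 0.05 were Il34 and 5 others. The differences of these 5 were -1.21 for Il1f6 (-2.06 to -0.35), -0.94 for Il1r2 (-1.73 to -0.15), -0.61 for Il4i1 (-1.19 to -0.02), -0.48 for Il33 (-0.89 to -0.08) and -0.44 for Il18rap (-0.79 to -0.08), and their smallest adjusted p was 0.19 by limma. All 5 were lower within each digit, by -1.09, -1.55 and -1.12 for Il1f6, -0.58, -0.12 and -1.69 for Il1r2, -0.12, -0.79 and -0.91 for Il4i1, -0.04, -0.67 and -0.75 for Il33 and -0.25, -0.27 and -0.68 for Il18rap. The block fit that picked these 5 rests on the same within-digit differences, so their common sign is no separate support. For digit 3 the Ade side is mouse 308 alone. All 5 had also been called higher in Ade than in Con, so the same choice of reference mice bears on them. Summed markers were not called different by exact permutation test either, at p = 0.86 for T cells and p = 0.18 for macrophages and myeloid cells (two-sided), with smallest possible p of 0.0022. Exchanging mice only within digits gave exact p = 0.84 and 0.19, where the smallest possible p is 0.0056.

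Mouse 311 stood apart within Ade + IMC. It had the highest normalized count of the 12 adenine-fed mice for 18 of the 42 members tested, and for 6 of them it exceeded the next mouse by more than 1.5 times. For Il9r it had 319 normalized counts against 127 in the next mouse, for Il2ra 154 against 70.3 and for Il2rb 491 against 252. Mouse 311 also had the highest sums of T cell and B cell markers, 251 and 284 CPM, next to 174 and 124 CPM at most in Ade. Without it the difference from Ade turned negative for Il2rb, from 0.10 to -0.30, for Il2ra, from 0.14 to -0.15, and for Il12rb1, from 0.06 to -0.33 (adjusted p by limma at least 0.73 for these 3). Il9r and Il21r, at -0.43 and -0.09 with all mice by limma, lay at -1.10 and -0.44 without it. Their direction with all mice depended on the test, since edgeR on recovered reads gave 0.43 for Il9r and 0.12 for Il21r and DESeq2 0.43 and 0.13, none of them called. With the digit as a block limma gave -0.76 for Il9r and -0.29 for Il21r, neither called. Mean normalized counts of Il9r were 70.6 in Ade + IMC and 52.7 in Ade.

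**Figure D5:**
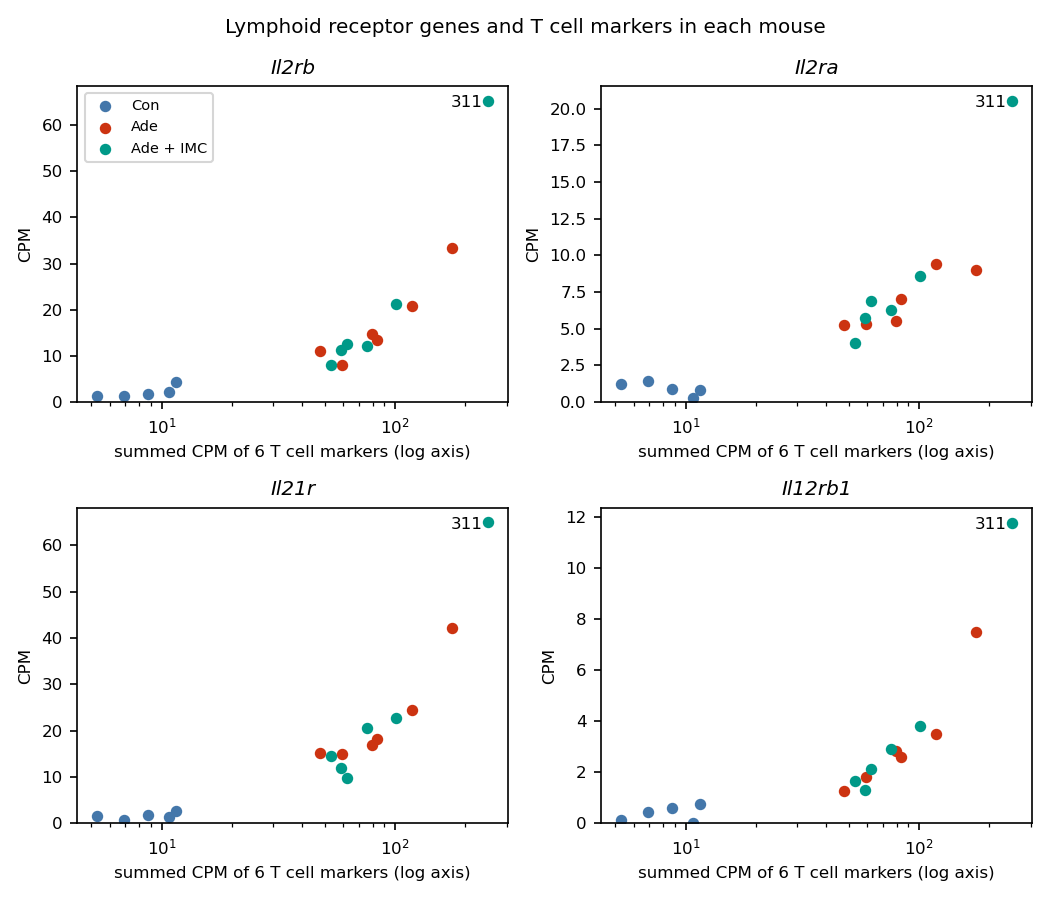
CPM of Il2rb, Il2ra, Il21r and Il12rb1 (vertical axes) against the summed CPM of 6 T cell markers (horizontal log axis), 1 point for each of the 17 mice. Con mice lie at the lower left with at most 4.29 CPM of Il2rb, and mouse 311 at the upper right with 251 CPM of T cell markers and 65.3 CPM of Il2rb; both axes come from the same libraries.

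Against Con, mice on adenine with IMC showed 29 of 39 tested members higher and 1 lower by edgeR, next to 30.9% and 32.3% of the 14578 genes tested. Of the 39, 5 passed the filter with no Con mouse above its limit and could be tested only because they were high in Ade + IMC. This comparison shares the Con mice with Ade against Con, so the values are given side by side only. Il34 was higher by 2.47 ± 0.19 in Ade + IMC and by 3.16 ± 0.23 in Ade, each relative to Con. Il18bp, not called in Ade, was higher by 0.57 ± 0.18 in Ade + IMC (adjusted p = 0.014), from 15.5 ± 3.7 to 23.5 ± 5.0 CPM with overlapping ranges. For Il15, Il11ra1 and Il6st, all called in Ade, the values in Ade + IMC were -0.31 ± 0.17, -0.15 ± 0.08 and 0.25 ± 0.13 (adjusted p = 0.13, 0.13 and 0.11 by edgeR). These 3 lay near the threshold, and each was called under some alternative. Il15 was called without Con mouse 302 (-0.39, adjusted p = 0.078), Il11ra1 without Con mouse 201 (-0.19, adjusted p = 0.096), and Il6st with DESeq2, with RLE or upper quartile scaling, and without any of Con mice 201 and 302 or Ade + IMC mouse 412 (0.26 to 0.37). Over all alternatives the adjusted p ran from 0.027 to 0.293 for Il15, from 0.070 to 0.498 for Il11ra1 and from 0.010 to 0.253 for Il6st. Il15ra was the 1 member called lower, at -0.21 ± 0.09 (adjusted p = 0.057). Upper quartile scaling, added after seeing the data, ended the call of Il15ra at -0.14, and leaving out any of Con mouse 201 or Ade + IMC mice 212, 310 and 410 ended it too, at log2 values of -0.17 to -0.19.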

How the data were processed

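RNA from 17 kidneys was prepared by the submitters as TruSeq libraries and read on an Illumina HiSeq. The study's methods describe alignment to mm10 with STAR and normalization with DESeq2, whereas the submitters' processing notes name Trimmomatic 0.39, FastQC 0.11.8, Bowtie2 2.2.5, HTSeq 0.9.1 and DESeq2. Which of these made the tables, which annotation was counted and whether strand was used is not given in the sources used here.

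The authors deposited raw counts for Con and Ade, and for Ade and Ade + IMC a table of counts divided by DESeq2 size factors, treated here as a signal; both leave out genes under 5 reads. Of the normalized values, 100% came back to whole reads (tolerance 1e-06), and for the 6 Ade mice, 0 differed from the raw counts. The depth is given with the results. Columns with the authors' fold changes and p-values were not used, and of that table only the gene names were read.

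Ade was compared with Con by edgeR 4.0.16 (quasi-likelihood, filterByExpr). For Ade + IMC against Ade, limma 3.58.1 (trend) was run on log2(normalized count + 1), genes with a mean of at least 10, and edgeR on whole reads served for Ade + IMC against Con. Calls were made at a Benjamini-Hochberg adjusted p below 0.1 over all genes, in R 4.3.3. Summed markers were compared by exact permutation over mice. Alternatives were DESeq2 1.42.0, other scalings, filters and pseudocounts, a block for the digit that opens each mouse's number, and leaving out each mouse. Deviations from the group means, averaged by digit, correlated at 0.28 to 0.39 between Ade and Ade + IMC for the 3 digits. Between unlike digits the values were -0.47 to 0.09. Deviations within a group offset each other, so these values are not independent, and digit 3 in Ade is mouse 308 alone. The digit was taken to pair mice in that comparison only, a pairing that rests on the data and not on the labels. It was read from the same libraries that the block then tested. The tests were tried on simulated data. Intervals of read ratios and floors cover counting error only, whereas those from limma include the spread between mice.

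Named genes were 33 symbols set by name, the 8 called members with the largest rise in Ade against Con, those with the largest fall (up to 8, of which there were 3), and those with an unadjusted p below 0.05 in Ade + IMC against Ade. The members and lists were chosen with earlier results of these data known. Levels were divided by the union of exons in GENCODE M21 (GRCm38, the same assembly as mm10).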

Additional observations from a re-analysis of the deposited data

Results flagged for a closer look

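Among 92 groups of mice (35 named members in up to 3 groups, with at least 10 reads in 1 mouse), 13 had a mouse whose gap to the others exceeded Dixon's 95% limit, where about 1 in 20 groups, or 4.6, would by chance if the groups were independent. They are not, since the same mice recur for every gene, so nothing is read from the 13 against 4.6. In Ade + IMC, mouse 311 was the highest in 10 of them: Il9r at 42.4 CPM (other mice 1.43 to 6.22), Il16 at 42.2 (13.3 to 19.6), Il2rb at 65.3 (8.02 to 21.2), Il21r at 65.0 (9.73 to 22.8), Il12rb1 at 11.8 (1.32 to 3.83), Il2ra at 20.5 (4.01 to 8.61), Il17ra at 63.5 (41.8 to 48.5), Il2rg at 70.5 (18.0 to 34.6), Il7r at 34.8 (12 to 19.5) and Il33 at 62.6 CPM (28.1 to 40.5). The same mouse had the highest T cell and B cell marker sums, and their part in these values was not tested. Mouse 410 of the same group had the highest Il11, 1.43 CPM against 0.567 to 0.829, which is 10 reads. In Ade, mouse 308 stood apart for Il12rb1 at 7.52 CPM (others 1.27 to 3.48) and Il21r at 42.3 CPM (14.9 to 24.5).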

How the results depend on the processing

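No called member changed sign under any alternative run. Against the 30 members higher in Ade than in Con, the alternatives gave 30 to 41. The 3 lower became 5 with DESeq2 and 6 with no filter, and 3 to 4 when 1 mouse was left out. With no filter 19 more members were tested, of which 11 were higher and 3 lower. Of all genes, 29.2% were then called higher and 24.6% lower, beside 35.1% and 32.2% with the filter. DESeq2 also ran without that filter, so the counts of both settings cover more members. For Ade + IMC against Ade, 0 members were called except 1 lower, Il34, with the digit as a replicate block, and at an unadjusted p below 0.05, 3 higher and 1 lower, or 2 higher and 6 lower with the block. The 1 member lower in Ade + IMC than in Con became 3 with DESeq2, 3 with no filter, 3 with the block and 0 at an adjusted p below 0.05, 0 to 2 when 1 mouse was left out, and 0 with upper quartile scaling, which was added after seeing the data. With no filter 20 more members were tested in this comparison, and 2 of them were called lower. The block added Il15 (-0.37, adjusted p = 0.027 by edgeR) and Il11ra1 (-0.17, adjusted p = 0.070) to the 1 lower call of the main run, and Il6st (0.29, adjusted p = 0.062) to the higher ones. In the 2 comparisons with Con, same-digit correlations of deviations were -0.051 to 0.15 for Ade and -0.012 to 0.11 for Ade + IMC. Between unlike digits they were -0.22 to 0.27 and -0.12 to 0.051. The digit was not taken to pair mice there, and whether mice with the same digit share more than it was not tested. The block changed no other count by over 1.5 times. Upper quartile scaling moved the median of all genes most, from 0.02 to 0.08 (log2) in Ade against Con.

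Some values that were not called changed sign, and the largest of these was 0.43 in size, for Il9r. In Ade against Con, Il17ra (-0.01) was 0.050 with upper quartile scaling and between -0.083 and 0.037 without 1 mouse, and Il1rap (0.01) was -0.014 with DESeq2, -0.0077 with RLE scaling, -0.0072 with no filter, -0.11 with the block and between -0.13 and 0.11 without 1 mouse. In Ade + IMC against Ade, 21 of the 42 members changed sign under some setting. With the block, Il12rb1 was -0.13, Il2rb -0.051, Il17ra -0.016 and Il1rap 0.044. On recovered reads Il9r was 0.43 with edgeR and 0.43 with DESeq2, Il21r 0.12 and 0.13, and Il2rg 0.079 and 0.089. Without 1 mouse, Il12rb1 ranged from -0.33 to 0.35, Il2rb from -0.30 to 0.33, Il2ra from -0.15 to 0.32, Il21r from -0.44 to 0.12, Il2rg from -0.29 to 0.12, Il27ra from -0.38 to 0.050, Il16 from -0.33 to 0.033, Il20rb from -0.22 to 0.038, Il6ra from -0.057 to 0.21, Il4ra from -0.15 to 0.026, Il1rap from -0.11 to 0.12, Il10rb from -0.090 to 0.014, Il17ra from -0.044 to 0.11, Il1r1 from -0.064 to 0.026 and Il6st from -0.071 to 0.061. In Ade + IMC against Con, Il17ra was 0.0059 with DESeq2, 0.012 with RLE scaling, 0.070 with upper quartile scaling, 0.0032 with the block and between -0.10 and 0.066 without 1 mouse, and Il13ra1 was 0.043 with upper quartile scaling and between -0.093 and 0.053 without 1 mouse. The cause was not tested beyond the values without mouse 311. Depth limits the ligands most, since 14 of 21 had too few reads to be tested in Ade against Con.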
